A study of Mus musculus with 5 samples.

Results

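Broad KLF5 peaks are the V5-KLF5 ChIP-seq peaks on chromosomes 1 to 19 that were at least 1500 bp long. They were selected on the length given by the authors' peak caller, and there were 530 of them among 44760 peaks on those chromosomes (1.18%, 95% exact Clopper-Pearson interval 1.09 to 1.29). The other 44230 peaks are called shorter peaks. Because length chose the broad peaks, their pileup, fold enrichment and summit position, which come from the same comparison of V5 with input, are descriptions and were not tested.

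The immunoprecipitation was done with an anti-V5 antibody in wild-type mouse embryonic stem (ES) cells derived from C57B6/J mice and overexpressing KLF5 with a V5 epitope tag. The same cells gave a mouse normal IgG immunoprecipitate and input DNA. Untagged wild-type ES-D3 cells, an established mouse ES line, gave a V5 immunoprecipitate and input as control. Each of these 5 groups was 1 library, so no spread between cultures could be measured and all intervals cover counting error only. The promoter and expression level of the tagged KLF5 are not given in the sources used here, and binding of KLF5 at its normal level was not measured. The label names the untagged line ES-D3 while the file's run name gives JM8.N4, another ES line, and which line was used is uncertain.

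KLF5 belongs to the Krüppel-like (KLF) zinc-finger transcription factors, which bind GC-rich and CACCC-type sequences, as do the related SP factors. In mouse ES cells it takes part, together with KLF2 and KLF4, in keeping the cells self-renewing, and in the embryo it is needed in the blastocyst. Transcription factors mostly give narrow peaks in ChIP-seq, and a long interval arises where signal above input continues over more sequence than a single short site covers.

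The 6 promoter windows below lie wholly inside broad peaks and show the letters at some of the highest and longest of them (Kmt2a, Vgll4, Pim1 and Csf2ra) and at 2 pluripotency genes (Pou5f1 and Tdgf1). They were taken from RefSeq (GRCm38.p6) for the genes named by the rule given with the processing, and they are the 6 of those with the highest fold enrichment at the peak. Each runs 5′ to 3′ on the strand of its gene, from 250 bases before to 50 bases after the listed start site. Capitals mark every match to GGGNGNGG or GGGCGG on either strand, where N is any base. Kmt2a (chr9:44881240-44881539, minus strand) encodes a histone H3K4 methyltransferase, and Vgll4 (chr6:114969154-114969453, minus) a cofactor of the TEAD factors. Pim1 (chr17:29490535-29490834, plus) encodes a serine/threonine kinase and Csf2ra (chr19:61228369-61228668, minus) a subunit of the GM-CSF receptor. Pou5f1 (chr17:35505782-35506081, plus) encodes the pluripotency factor OCT4, and Tdgf1 (chr9:110946109-110946408, minus) the NODAL co-receptor Cripto.
Kmt2a: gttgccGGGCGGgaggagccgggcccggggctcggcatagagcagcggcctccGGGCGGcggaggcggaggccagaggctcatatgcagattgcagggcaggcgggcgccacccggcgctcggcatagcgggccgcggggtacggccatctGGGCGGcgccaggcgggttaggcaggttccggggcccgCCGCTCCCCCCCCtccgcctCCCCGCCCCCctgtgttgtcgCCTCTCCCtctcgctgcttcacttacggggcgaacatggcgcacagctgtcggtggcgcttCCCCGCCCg
Vgll4: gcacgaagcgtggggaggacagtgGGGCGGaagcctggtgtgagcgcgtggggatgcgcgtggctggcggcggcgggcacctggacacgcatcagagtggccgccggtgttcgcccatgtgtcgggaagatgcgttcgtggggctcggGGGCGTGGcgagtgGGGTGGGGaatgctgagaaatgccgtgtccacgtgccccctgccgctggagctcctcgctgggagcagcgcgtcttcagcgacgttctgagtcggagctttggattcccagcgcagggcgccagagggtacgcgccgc
Pim1: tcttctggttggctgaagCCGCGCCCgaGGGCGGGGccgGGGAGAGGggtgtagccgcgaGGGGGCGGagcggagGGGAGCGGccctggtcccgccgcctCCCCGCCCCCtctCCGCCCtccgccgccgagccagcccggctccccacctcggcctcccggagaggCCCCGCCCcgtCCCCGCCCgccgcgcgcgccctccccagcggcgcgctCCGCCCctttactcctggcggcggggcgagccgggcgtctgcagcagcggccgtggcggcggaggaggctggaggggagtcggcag
Csf2ra: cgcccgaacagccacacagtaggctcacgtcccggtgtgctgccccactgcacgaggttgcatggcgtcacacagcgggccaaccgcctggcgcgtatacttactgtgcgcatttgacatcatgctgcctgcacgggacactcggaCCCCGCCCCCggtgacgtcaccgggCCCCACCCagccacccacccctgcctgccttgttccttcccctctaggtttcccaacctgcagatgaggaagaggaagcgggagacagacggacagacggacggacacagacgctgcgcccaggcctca
Pou5f1: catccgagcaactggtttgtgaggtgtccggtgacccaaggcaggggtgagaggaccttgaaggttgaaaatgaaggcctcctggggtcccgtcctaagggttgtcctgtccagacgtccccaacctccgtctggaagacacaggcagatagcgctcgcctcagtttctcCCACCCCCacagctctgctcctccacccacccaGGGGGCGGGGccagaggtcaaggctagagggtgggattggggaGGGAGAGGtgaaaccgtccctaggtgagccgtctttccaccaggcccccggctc
Tdgf1: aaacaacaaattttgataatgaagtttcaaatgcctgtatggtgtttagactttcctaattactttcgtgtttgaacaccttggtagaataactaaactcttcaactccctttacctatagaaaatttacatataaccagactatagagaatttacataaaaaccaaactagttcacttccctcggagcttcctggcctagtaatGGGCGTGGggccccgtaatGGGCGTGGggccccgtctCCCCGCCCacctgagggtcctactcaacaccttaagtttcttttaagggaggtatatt

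All 6 windows held both letter patterns, but the numbers differed. The Pim1 window had 9 matches to GGGNGNGG and 7 to GGGCGG, and 81.3% of its bases were G or C. Kmt2a had 6 and 5 matches at 75.7% GC, whereas Tdgf1, at 41.7% GC, had 3 and 1. Pou5f1 had 4 matches to GGGNGNGG, Csf2ra 3 and Vgll4 2, each with 1 match to GGGCGG. The summit lay inside the printed window only at Kmt2a, 199 bp upstream of the start site. It was 153 bp downstream of the start at Vgll4, 341 bp upstream at Pim1, 1275 bp upstream at Tdgf1, 1991 bp upstream at Pou5f1 and 2650 bp downstream at Csf2ra.

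Across all broad peaks, 265 promoter windows of 219 genes lay wholly inside the interval. Of these, 90.9% (86.8 to 94.1) held GGGNGNGG, against 83.2% of 4380 windows wholly inside shorter peaks. The share was 49.4% in 15440 windows that lay wholly inside no peak and 57.3% in all these windows together. Windows only partly covered by a peak are not shown as a group of their own. Counting any overlap, 8971 windows fell to shorter peaks, so such windows were many. Broad-peak windows carried 3.31 matches each on average and shorter-peak windows 2.39. GGGCGG, the core of the GC box, was in 80.8% of windows in broad peaks and 80.5% in shorter peaks, against 47% of all these windows. GGGTGTGG, the CACCC-type form and a special case of GGGNGNGG, was rare. It was in 5.28% of windows in broad peaks (2.92 to 8.71), 5.53% in shorter peaks and 3.65% of all these windows. Base composition was close, with a median GC content of 65.7% in broad peaks and 64.3% in shorter peaks. It was 53.7% in the windows wholly inside no peak. GGGCGG can overlap GGGNGNGG, so the shares are not independent, and a match to these letters is not evidence of a binding site.

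Where the window also held the summit, 79 of 83 windows in broad peaks had GGGNGNGG (95.2%, 88.1 to 98.7), against 85.0% of 3253 windows in shorter peaks. GGGCGG was in 91.6% (83.4 to 96.5) and 82.5% of them. In broad peaks of 2000 bp or more, GGGCGG was in 70.1% of 67 windows, below the 80.7% of windows in all other peaks. No interval was computed for this share of few windows, so the drop may lie within counting error. The part of base composition in these shares was not tested.

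Broad peaks were the tail of a continuous distribution of lengths rather than a separate class. Their lengths ran from 1500 to 4967 bp with a median of 1747 bp (1710 to 1772) and quartiles of 1595 and 1995 bp, and 131 reached 2000 bp. Shorter peaks had a median of 424 bp, and the shortest in the list was 250 bp, the length to which the authors extended each tag. There were 77 peaks of 1500 to 1549 bp and 74 of 1450 to 1499 bp. Pileups of the peaks nearest the threshold overlapped. Inside it, the 1500-bp peaks nearest Ywhaq, Neurog1, Dennd2c, Atpif1 and Erich1 had pileups of 59, 44, 61, 37 and 158. Outside it, the peaks of 1497 to 1499 bp at Ift140, Mme, Cbx8, Cnksr1 and Elk4 had pileups of 50, 168, 39, 64 and 68. Their places differed: these 5 summits lay 42 to 434 bp from a gene end, and those of the 5 broad peaks 5644 to 53921 bp away. The Dennd2c summit, however, was 121 bp upstream of a listed start site inside the gene. These are only 5 peaks a side, and the adjoining length classes differed far less. The summit lay within 1 kb of a gene end in 50.2% (46.2 to 54.2) of peaks of 1250 to 1499 bp. At 1500 to 1999 bp the share was 41.6% (36.7 to 46.6). Broad peaks covered 989 kb of the 22.8 Mb under peaks (4.33%).

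Pileup is the number of extended tags over the summit, the highest point of a peak. Its median was 65.5 (61 to 70, range 23 to 296) in broad peaks and 24 in shorter peaks, a ratio of 2.73. Fold enrichment, the ratio of pileup plus 1 to input background plus 1, had medians of 12.6 and 5.17. A fold enrichment of at least 10 was reached by 372 broad peaks (70.2%), against 12.3% of shorter peaks and 13% of all peaks. The highest pileup of the whole list, 353, was that of a shorter peak at the ribosomal RNA (rRNA) locus described below.

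**Figure D1:**
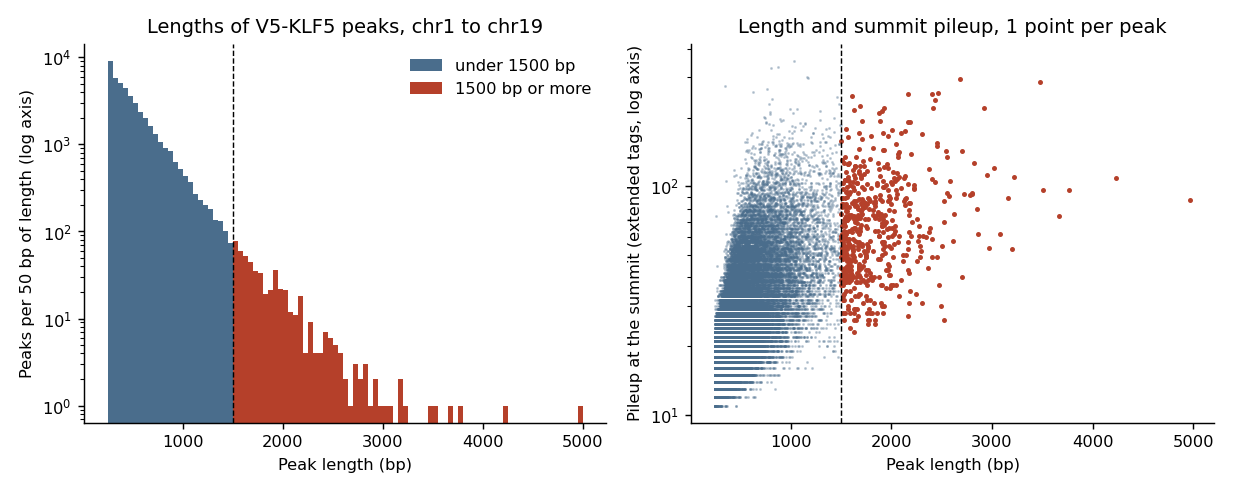
Left, number of V5-KLF5 peaks per 50 bp of length (log axis). Right, summit pileup in extended tags (log axis) against peak length in bp, 1 point per peak, with the 1500-bp threshold dashed; lengths fall off without a step at the threshold, and broad peaks (red) span pileups from 23 to 296.

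The input was somewhat higher under broad peaks. The input background, recovered from pileup and fold enrichment and in the same unit as the pileup, had a median of 3.83 in broad peaks and 3.45 in shorter peaks. Its lowest value, a genome-wide floor of 3.10, was that of 16.6% of broad and 36.7% of shorter peaks. Any lower input at those peaks cannot be seen. The background lay above 6.13, the 95th percentile of all peaks, in 49 broad peaks (9.25%, 6.92 to 12.04) and in 4.94% of shorter peaks. The highest was 128, at the rRNA locus, followed by 12.3 near Tgm2, 10.7 at Cavin1 and 8.43 at 4 peaks, those at Ddias, Bahcc1 and Chd9 and a peak 44992 bp from Slc44a3. Near Tgm2, a transglutaminase gene, the fold enrichment was 2.94. Among the 4 tied peaks it was 3.498 at Chd9, 4.66 near Slc44a3, 5.94 at Ddias and 27.1 at Bahcc1. Chd9 and Slc44a3 are named because of the tie, after their values were seen. What raised the input at these peaks was not tested.

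The controls gave almost no peaks at these places. The V5 immunoprecipitate of the untagged cells had 0 peaks anywhere, and the IgG immunoprecipitate had 3, so 529 of 530 broad peaks had no peak in a control. The 44230 shorter peaks held only the third IgG peak, described below, so this is not particular to broad peaks. The exception among broad peaks was the 3478-bp peak at chr17:39843067-39846544, which lies 2278 bp from Rn18s-rs5, a copy of 18S rRNA, and held 2 of the 3 IgG peaks. Its V5 pileup of 287 was the second highest of all broad peaks, but its fold enrichment of 2.24 was the lowest. The third IgG peak lay in a shorter V5 peak 274 bp from the same gene, which had a pileup of 353. rRNA genes are repeated in the genome, and whether reads of many copies were counted here was not tested. The locus is left in all counts of broad peaks. The absence of a listed control peak says only that none passed the authors' q-value cutoff of 0.05.

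Summits of broad peaks lay farther from the middle of the interval than those of shorter peaks. Position was measured as an offset, 0% for a summit at the centre and 100% for a summit at an edge. The median offset was 42.1% (39.3 to 45.03) in broad peaks and 19.3% in shorter peaks. An offset of at least 50% was found in 213 broad peaks (40.2%, 36.0 to 44.5), against 10.1% of shorter peaks, and an offset under 20% in 129 (24.3%) against 51.2%. In base pairs, the summit of broad peaks stood a median of 524.5 bp from the nearer edge and 1252 bp from the farther edge, against 173 and 239 bp in shorter peaks. The offset rose through every class of length, from 16.1% at 250 to 499 bp to 38.2% at 1250 to 1499 bp, 40.7% at 1500 to 1999 bp and 46.8% at 2000 bp or more. Within bands of pileup the medians also differed: between 26 and 50 tags the median was 46.4% in broad and 16.5% in shorter peaks, and between 101 and 150 tags 33.8% and 16.1%. Length chose the groups and also scales the offset, and its part in these differences was not tested. The list gives 1 summit per interval, so further maxima inside a broad peak cannot be seen.

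**Figure D2:**
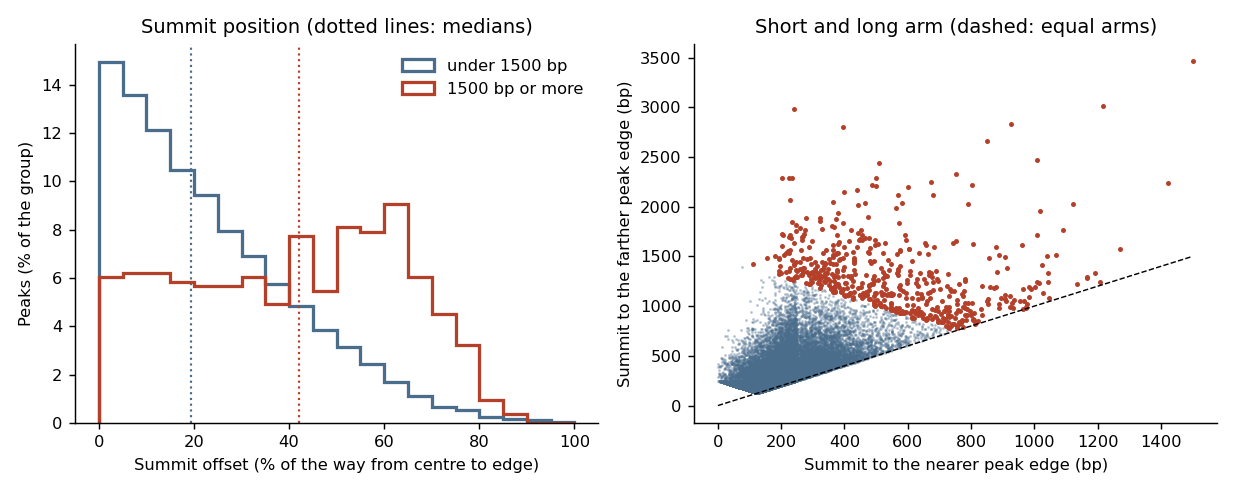
Left, share of peaks (% of the group) by summit offset, the distance of the summit from the peak centre in % of the way to the edge, with medians dotted at 19.3% and 42.1%. Right, distance in bp from the summit to the nearer and to the farther edge, 1 point per peak, equal arms dashed; most broad peaks (red) lie well above that line.

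The most lopsided broad peak, at Helz, an RNA helicase gene, had its summit 111 bp from an edge of a 1533-bp interval (offset 85.5%, pileup 26). At Actg1, the gene of cytoplasmic gamma-actin, the summit was 240 bp from the left edge of a 3223-bp peak (85.1%). That interval covered the whole of the lncRNA gene 0610009L18Rik and had its summit 420 bp from the Actg1 gene. Near Nfib, which encodes a nuclear factor I protein, the summit was 202 bp from the right edge of 2491 bp (83.8%, pileup 30).

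The longest broad peak, 4967 bp at chr15:102245996-102250962, lay inside Rarg, the retinoic acid receptor gamma gene, with a pileup of 87 and a fold enrichment of 20.4. Its summit was 8063 bp from the nearer gene end and 2959 bp upstream of the nearest listed start site of Rarg. The Csf2ra peak was next, with 4230 bp at chr19:61224552-61228781, a pileup of 109 and a fold enrichment of 24.7. It was followed by 3762 bp at chr19:23133208-23136969, 7092 bp outside Klf9, a KLF family member, and 364 bp from the gene 2410080I02Rik. A 3666-bp peak lay 1487 bp outside Midn (chr10:80158433-80162098, pileup 74), and the 3509-bp Pim1 peak (chr17:29489594-29493102, pileup 96) had its summit 341 bp outside the gene. The last of the 10 longest, 3078 bp at chr11:74829754-74832831, had its summit 301 bp outside Mnt, which encodes a MAX-binding repressor. Peaks of 3197 and 3156 bp lay 22281 bp from Nrf1, the nuclear respiratory factor 1 gene, and 123681 bp from Med13l, a Mediator subunit gene. None of these reached a pileup above 110 except the rRNA locus.

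The highest broad peaks were mostly other ones, and the 2 sets of 10 shared only the rRNA locus. Mllt6, a gene fused to Kmt2a in leukaemia, had the highest pileup, 296, in a 2686-bp peak whose summit was 592 bp outside the gene (chr11:97660415-97663100, fold enrichment 53.0). Kmt2a had the highest fold enrichment, 58.7, with a pileup of 248 over 1606 bp (chr9:44881239-44882844). Vgll4 had a fold enrichment of 54.9 and a pileup of 254 over 2165 bp (chr6:114968571-114970735). Ctnna1, which encodes alpha-E-catenin of cell junctions, had a fold enrichment of 53.1 and a pileup of 225. A peak with a pileup of 254 and a fold enrichment of 45.5 lay 36784 bp from Slc2a1, a glucose transporter gene (chr4:119071210-119073615). Pileups of 221 to 255 were also reached inside Bahcc1 (255), C77080 (238), Ltbp4 (221) and Stmn1 (221), which encodes the microtubule regulator stathmin.

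**Figure D3:**
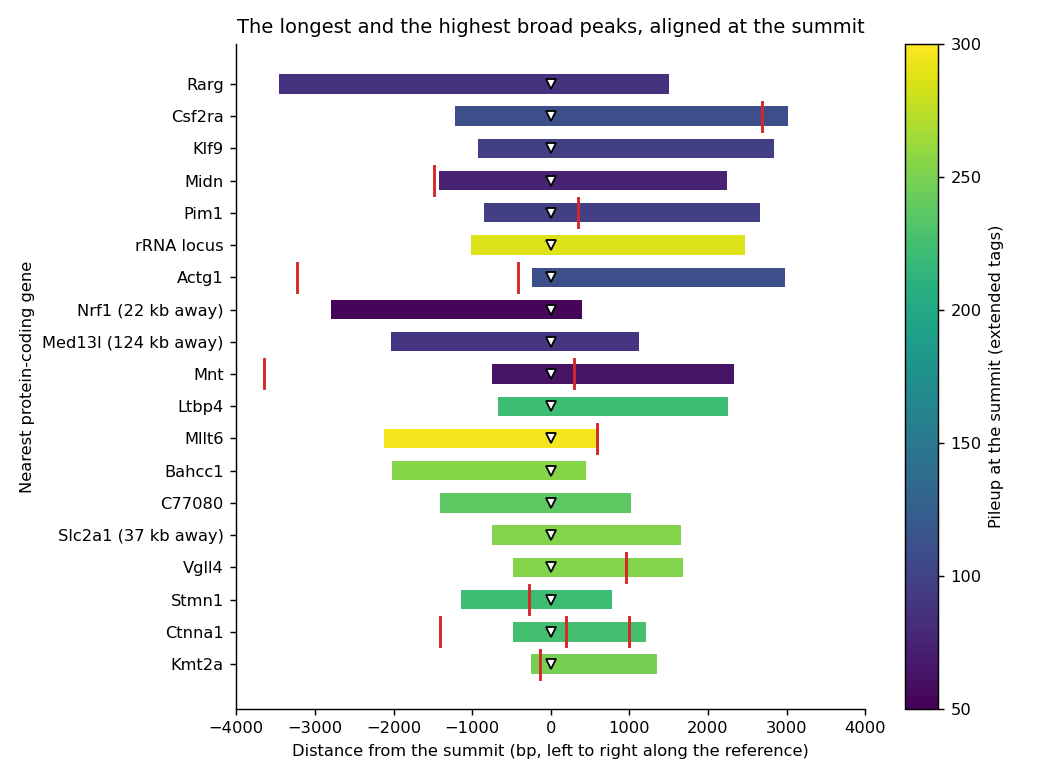
The 10 longest and 10 highest broad peaks (19 in all, since the rRNA locus is in both), drawn to scale in bp from the summit (triangle), coloured by summit pileup in extended tags; red ticks mark ends of protein-coding genes. The longest peaks have pileups up to 110 apart from the rRNA locus, and the summit is nearer to an edge than to the centre in 10 of the 19.

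Gene positions were not used to choose the broad peaks. The summit fell within 1 kb of either end of some protein-coding gene in 206 of 530 broad peaks (38.9%, 34.7 to 43.2), against 26.4% of shorter peaks and 26.5% of all. A further 158 broad peaks (29.8%) had their summit deeper inside a gene, against 39.6% of shorter peaks. Of all broad peaks, 69 (13.02%) had their summit outside protein-coding genes at 1 to 10 kb from an end and 97 (18.3%) beyond 10 kb, against 11.2% and 22.9% of shorter peaks. The median distance to a gene end was 1820 bp (1382 to 2655) for broad and 7256.5 bp for shorter peaks. Since these peaks come from 1 library and are not replicates, no p-value was computed. Gene ends include 3′ ends, and the gene table gives no exons, so exonic and intronic summits were not separated.

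This closeness to genes did not keep rising with length. The share of summits within 1 kb of a gene end climbed from 20.5% at 250 to 499 bp to 50.2% (46.2 to 54.2) at 1250 to 1499 bp. It was 41.6% (36.7 to 46.6) at 1500 to 1999 bp and 30.5% (22.8 to 39.2) in the 131 peaks of 2000 bp or more. Listed start sites within 1 kb gave the same order, 47.4%, 38.5% and 30.2% in the last 3 classes. The longest peaks were also higher, with a median pileup of 85 against 54 at 1250 to 1499 bp. From 26 tags upward, higher peaks were less often at gene ends in both groups. Between 26 and 50 tags the share was 47.6% in broad and 31.1% in shorter peaks, between 76 and 100 tags 36.7% and 24.4%, and above 150 tags 18.2% (6.98 to 35.5) and 14.0%. Within each of these bands the broad peaks had the higher share, but the intervals overlap from 76 tags upward.

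**Figure D4:**
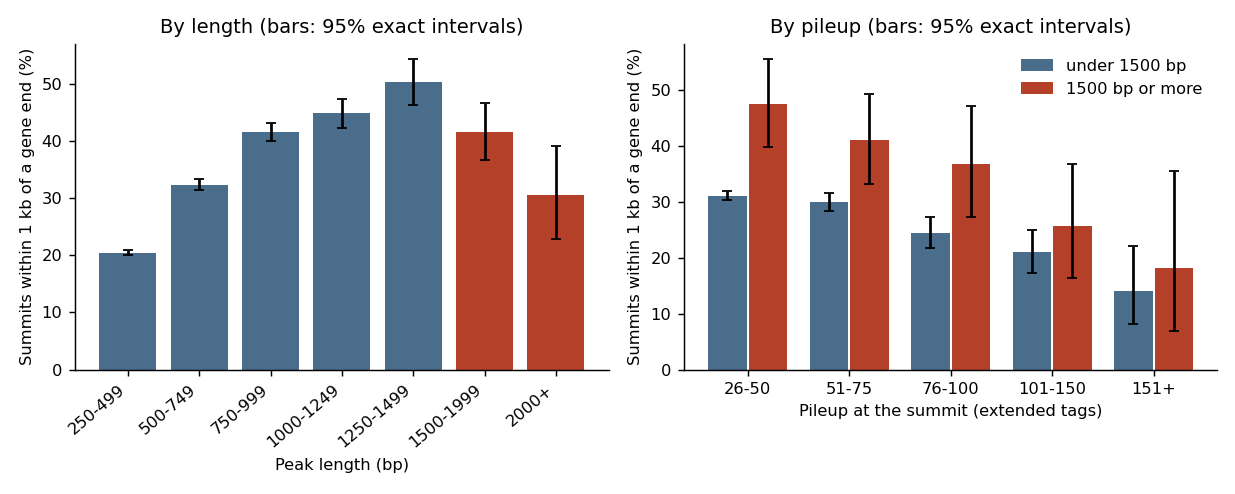
Share of summits (%) within 1 kb of either end of any protein-coding gene, by peak length in bp (left) and by summit pileup in extended tags (right), for shorter (blue) and broad (red) peaks; error bars are 95% exact intervals. The share peaks at 50.2% for 1250 to 1499 bp and falls to 30.5% for the longest peaks.

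Broad peaks away from genes were the higher ones. Median pileup was 56.5 (53 to 63) for the 206 at a gene end, 62.5 (54 to 73) inside genes, 78 (67 to 88) at 1 to 10 kb and 81 (69 to 91) beyond 10 kb. A pileup of 100 or more was reached by 12.6% of broad peaks at gene ends and by 33.0% of those beyond 10 kb. Among shorter peaks the medians were 26 at gene ends and 23 in the other places. The share of shorter peaks with a pileup of 100 or more was also lowest at gene ends, at 1.00%. It was 1.21% inside genes, 1.84% at 1 to 10 kb and 1.55% beyond 10 kb. The most remote broad peaks lay 405464 bp from Id4, an inhibitor of bHLH factors, where the summit was inside the gene Gm52029, 311022 bp from Klf6, and 221546 bp from Fam155a. Their pileups of 53, 64 and 57 were below the median of all broad peaks.

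Start sites could be read with strand for 516 broad peaks, those on chromosomes of the promoter table. The table is not complete on these chromosomes either, and lists no start of Klf10, for example. A peak counted as holding no start may therefore hold an unlisted start, and the shares below may be too low. Of the 516, 209 (40.5%, 36.2 to 44.9) held a listed start, against 15.4% of shorter peaks. A longer interval covers more sequence, and the part of length in this difference was not tested. A listed start lay within 1 kb of the summit in 36.4% of broad and 22.7% of shorter peaks. Starts on both strands fell in 19 broad peaks (3.68%, 2.23 to 5.69) and 1.10% of shorter peaks. They include the pairs Brd2 and H2-DMa in a 2820-bp peak with a pileup of 127, Clcn2 and Polr2h in 2175 bp, Cbx3 and Hnrnpa2b1 in 2073 bp, and Paics and Ppat, enzymes of purine synthesis, in 1625 bp. These 4 pairs were chosen for mention after the list was seen. Where a start lay in the peak and within 1 kb of its summit, the summit was upstream of the start in 111 of 179 broad peaks (62.0%, 54.5 to 69.1) and in 57.9% of shorter peaks. The median position was 76 bp upstream in broad peaks and 23 bp upstream in shorter ones. In the 160 broad peaks of this kind with a start of 1 gene only, the interval reached a median of 855 bp upstream and 904 bp downstream of the start, and was longer downstream in 88 (55.0%, 46.9 to 62.9).

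Broad peaks lay in clusters of peaks more often than shorter ones did. At least 3 other summits fell within 10 kb of 195 broad peaks (36.8%, 32.7 to 41.1), against 19.6% of shorter peaks. No other summit within 10 kb was found for 119 (22.5%) against 36.4%. The median gap to the next peak was 1784.5 bp (1399 to 2309) and 4956 bp. A gap of 250 bp or less separated 78 broad peaks (14.7%) and 10.2% of shorter ones from a neighbour, and the smallest gap in the list was 52 bp. Joining peaks 250 bp or less apart gave 960 intervals of at least 1500 bp in place of 530.

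Among protein-coding genes on chromosomes 1 to 19, 612 of 20665 (2.96%) had a broad peak with its summit in the gene or within 10 kb. The 11 gene lists examined had such a peak at 31 of 193 genes. Outside the differentiated-tissue list, where 5 of 14 genes had a V5-KLF5 peak of any length, at least 83.3% of each list had one, against 73.0% of all genes. Long genes have more room for a summit, and the lists were not matched for gene length, so no list is called set apart.

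The KLF and SP family list had broad peaks at 8 of 25 genes (32.0%). The 3762-bp Klf9 peak was followed by 2727 bp at Klf10, 2406 bp at Klf12 and 1968 bp at Klf3, and the others were Klf13, Klf11, Sp1 and Klf16, with 1913 to 1631 bp. Of these 8, the peaks of Klf10, Klf12, Klf3, Klf13, Klf11 and Klf16 had summits within 1 kb of an end of their gene. Their pileups ran from 59 at Klf12 to 96 at Klf3. Klf2, Klf4 and Klf5, the members best known from ES cells and picked for mention on that ground, had 5, 3 and 4 V5-KLF5 peaks, none of them broad.

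The list of inner cell mass and naive pluripotency genes had broad peaks at 6 of 24. They were the zinc-finger factor Sall4 (2848 bp, pileup 80), Pou5f1 (2707 bp, pileup 143), Tdgf1 (2541 bp, pileup 143), the T-box factor Tbx3 (2519 bp, pileup 70), the replication-timing factor Rif1 (2450 bp, pileup 155) and the 5-methylcytosine oxidase Tet2 (1898 bp, pileup 76). The median length of these peaks was 2530 bp, against 1755 bp over all genes with a broad peak. None of the 6 summits lay within 1 kb of an end of its gene. At Pou5f1 the peak spanned chr17:35503542-35506248, from before the gene into its beginning, over the upstream region known to hold its enhancers. The summits at Tdgf1 and Rif1 lay 1275 and 1354 bp outside the genes, and those at Sall4, Tbx3 and Tet2 lay 1600, 2731 and 11390 bp inside. Sox2, Nanog and Esrrb, named as the most familiar members without one, had 5, 3 and 14 V5-KLF5 peaks but no broad peak.

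Housekeeping genes had broad peaks at 6 of 14. Tubb5, a beta-tubulin gene, had 2, the longer of 2578 bp with a pileup of 91. Ppia (cyclophilin A, 2144 bp), Tuba1b (alpha-tubulin, 2064 bp), Hsp90ab1 (a chaperone, 2058 bp), Gapdh (a glycolytic enzyme, 2049 bp) and Eef1a1 (translation elongation, 1728 bp) had 1 each. At these genes, 4 of the 6 summits lay within 1 kb of an end of the gene, at 518 bp for Ppia, 367 bp for Tuba1b, 118 bp for Hsp90ab1 and 56 bp for Eef1a1. None of the 6 at the pluripotency genes did. Over all broad peaks, 38.9% of summits lay within 1 kb of an end of some protein-coding gene. A summit inside a short gene cannot lie far from an end. The Gapdh peak lay 1066 bp outside Gapdh and its summit was nearer to Iffo1. Without the peaks on raised input, 4 of the 14 genes remained. The lists hold few genes and were not matched for gene length, and the difference between them in distance was not tested.

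Among chromatin regulators, 4 of 22 genes had a broad peak. Besides Mllt6 and Kmt2a, these were the H3K4 methyltransferase gene Setd1b, whose 2 broad peaks (2580 and 1859 bp) both had their summits inside the neighbouring gene Rhof, and the H3K27 demethylase gene Kdm6b (1884 bp, pileup 92). Hippo pathway and TEAD genes had 3 of 17, namely Vgll4, the DNA-binding factor Tead1 (1781 bp, pileup 88, 11360 bp inside the gene) and the scaffold gene Amotl2 (1632 bp, pileup 112, 555 bp inside). Epithelial junction genes had 2 of 20, Ctnna1 and the plakoglobin gene Jup (1753 bp, pileup 49). Trophectoderm and trophoblast genes had 1 of 24, the bHLH factor Ascl2 (1901 bp, pileup 37), although 23 of the 24 had a V5-KLF5 peak of some length. Neural genes had 1 of 12, Tubb3 (1820 bp). Mesoderm (12 genes), primitive endoderm (15) and differentiated-tissue genes (14) had none, which allows shares of up to 26.5%, 21.8% and 23.2% by the exact interval.

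**Figure D5:**
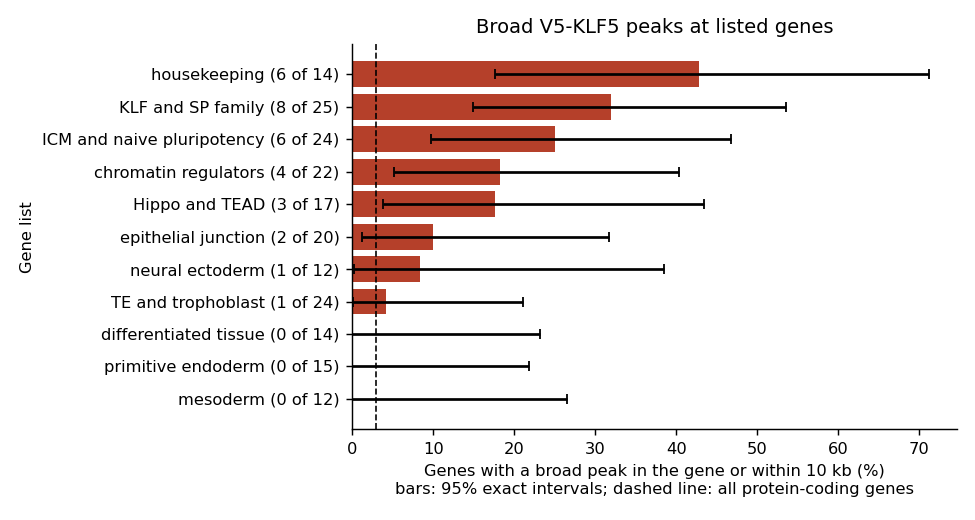
Share of the genes of each list (%) that have a broad V5-KLF5 peak in the gene or within 10 kb, with 95% exact intervals and the numbers of genes; the dashed line is the 2.96% of all protein-coding genes. At the 1500-bp threshold, housekeeping, KLF and SP, and pluripotency lists have the largest shares, 42.9%, 32.0% and 25.0%, and 3 lists are at 0.

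A second broad peak was found at 24 genes. Several of these share their peaks with a neighbour, as at Flot1, Mdc1 and Tubb5, and at Setd2, Nradd and Nbeal2. Others included Fgf4, a growth factor gene of ES cells, with peaks of 1522 and 1667 bp, the receptor gene Notch1 with 1626 and 2228 bp, the TCF factor gene Tcf7l1 with 1502 and 1519 bp, the IkB family gene Bcl3 with 2528 and 2027 bp, and Midn with 2340 and 3666 bp. These genes were chosen for mention after their values were seen.

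Some short genes lay wholly inside a broad peak. There were 19, of which 7 were miRNA genes and 5 protein-coding. The 44230 shorter peaks wholly held 60 miRNA genes, 85 tRNA genes and 3 protein-coding genes, so enclosed short genes were not confined to broad peaks. With only 530 broad peaks, enclosed genes of all types together were more frequent per peak there. A longer interval has more room for a whole gene, and the part of length was not tested. Among the 19 were Mir124a-1, a hairpin of the neuronal miRNA miR-124, in a 1567-bp peak with a pileup of 107, Mir191 in 1652 bp with a pileup of 73, and the immediate-early gene Ier2 in 2207 bp with a pileup of 70. H4c1 and H4c14 encode histone H4 and have near-identical copies elsewhere, so reads at them could be placed uncertainly.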

How the data were processed

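V5 and IgG ChIP-seq peak lists of mouse ES cells were used. Per the file headers, the authors called peaks with MACS2 2.1.0.20140616 on each library alone against the input of the same cells, with broad calling off, tags of 51 bp extended to 250 bp, 1 tag kept per position, the larger dataset scaled to the smaller, an effective genome size of 1.87 Gb and a q-value cutoff of 0.05. The V5-KLF5 library had 28.8 M tags, of which 23.2 M remained after that filter, the IgG library 24.5 M and the untagged V5 library 21.8 M, and the inputs 30.2 and 22.1 M. The submitters' processing notes name mm10 and Bowtie 0.12.8, with no role given. Per the labels' protocols, chromatin was sheared to below 2000 bp. Handling of multi-mapping reads was not given in the sources used here.

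Deposited values per peak are coordinates, a summit, the pileup signal there, the fold enrichment ratio, and p-value and q-value as −log10; these are the authors' own and were used only within the list. The input background was (pileup + 1) / fold enrichment − 1. For 525 of 530 broad peaks a Poisson p computed from it matched the deposited one within 1% on the −log10 scale. Genes and promoter windows were RefSeq, GRCm38.p6 (the assembly that mm10 names), matched by coordinates. All 198 listed genes matched, 193 of them on chromosomes 1 to 19. Ends of genes were used since the start-site table is not complete. Code (Python 3.11.15, pandas 2.3.3, scipy 1.17.1) was tested on simulated data. Intervals are exact at 95%.

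Regions named are the 10 longest, the 10 highest in pileup, the 5 highest in fold enrichment and the 5 on the highest input, the 5 on either side of the threshold, the 3 most off-centre and the 3 most remote, and up to 4 genes per list with the longest peaks; the other list members with a broad peak, and the genes said so in the text, were added after their values were seen. Printed promoter windows come from these genes. Broad peaks, lists and rule were chosen with earlier results of these data known.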

Additional observations from a re-analysis of the deposited data

Results flagged for a closer look

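The V5-KLF5 list also held 618 peaks outside chromosomes 1 to 19, and 3 of these were at least 1500 bp long. They entered no comparison above, and the IgG and untagged lists hold no peak there. A 2296-bp peak on the unplaced sequence chr4_GL456216_random had a fold enrichment of 10.5 and a pileup of 42. On chromosome X, a 1877-bp peak 928 bp outside Hcfc1, which encodes a transcriptional cofactor, had a fold enrichment of 8.05 and a pileup of 32. A 1543-bp peak on chromosome Y had a fold enrichment of 6.11 at a pileup of 195, on an input background of 31.1.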

How the results depend on the processing

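The number of broad peaks was 518 with fold enrichment of at least 5, 521 with −log10 q of at least 10, and 960 with peaks 250 bp or less apart joined. With length thresholds of 1000 and 2000 bp in place of 1500 bp, the difference in median offset was 18.04 and 27.3 percentage points (22.7 at 1500 bp), the ratio of median pileups 2.26 and 3.54 (2.73), the difference in gene-end share 19.6 and 4.05 points (12.5), and the number of listed genes with a broad peak 72 and 16 (31). The order of the lists changed with the threshold. At 1000 bp the largest shares were those of pluripotency (66.7%), housekeeping (64.3%) and chromatin genes (54.5%), against 14.2% of all genes. The KLF and SP list had 40%, and only differentiated-tissue genes had none. At 2000 bp housekeeping (35.7%), pluripotency (20.8%) and KLF and SP genes (12%) led, against 0.75% of all. Fold enrichment in place of pileup gave a ratio of 2.43. The difference in gene-end share was 6.11 points within 500 bp, 19.4 within 5 kb and 23.3 for any overlap of the interval; it was 10.3 points in the pileup range of the middle 50% of broad peaks and 13.8 for start sites. Summits within 1 kb left 18 listed genes. Windows holding the summit, a choice made after the data were seen, had GGGNGNGG in 95.2%. The order of broad and shorter peaks in GGGTGTGG turned under all 5 alternatives, with broad shares of 5.53% (1000 bp), 5.97% (2000 bp), 4.73% (any overlap), 7.23% (summit windows) and 5.91% (1 window per gene), and in GGGCGG at 2000 bp (70.1%). The cause was not tested. In all, 18 recomputed values of the main comparisons stayed within counting error of the reported value (for counts, within 1.5 times) and 15 did not, with no difference changing sign. No paired analysis was possible because each group has 1 library. With 1 library, nothing here measures differences between cultures, and the list shows no signal below the authors' cutoff.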
